A study of Homo sapiens with 2 samples.

Results

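The genes described here are 41 genes of the actin cytoskeleton and of focal adhesions: actins, proteins that bind actin monomers, the Arp2/3 complex and capping proteins, tropomyosins and other filament-binding regulators, nonmuscle myosin II, crosslinkers, focal adhesion proteins, PDZ-LIM proteins and the membrane linkers ezrin and moesin. They were chosen by name for their known function, but with earlier results of these data known. All 41 were found by symbol among the 36601 genes of the deposited single-cell count matrices. Human umbilical vein endothelial cells (HUVECs) had been grown for about 48 h to a confluent lining inside microfluidic devices with 4 channels of 50 µm. They were then perfused for 4 h with healthy red blood cells (the hRBC library) or with the same cells of which 5% had been stiffened by dehydration (the 5% pdRBC library). Dehydration used nystatin and washes in concentrated sucrose, which raised the mean corpuscular haemoglobin concentration to between 40 and 42 g/dL. The pdRBCs are healthy cells altered by a drug and not red cells of patients, and both groups carried the same dextran-seeded HUVEC lining and the same perfusion. Each group is 1 library made with a 5′ gene expression kit, so no difference between the groups has a replicate check and no p-value is given.

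Endothelial cells carry their shape and their barrier on actin filaments. Globular actin is held in reserve by thymosins, delivered to growing ends by profilin, nucleated into branched networks by the Arp2/3 complex and severed by cofilin. Bundles of filaments bound by tropomyosin, crosslinked by alpha-actinin and pulled by nonmuscle myosin II form stress fibres, which end at focal adhesions, where talin, vinculin, paxillin and zyxin couple them to integrins. Flow over endothelium is known to realign stress fibres and adhesions, and many of these genes are transcribed by serum response factor (SRF) with its actin-sensing cofactors of the MRTF family.

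After removal of barcodes with few molecules, 2555 cells remained in the hRBC library with 13335148 unique molecular identifiers (UMIs, each 1 captured RNA molecule) and 1601 cells in the 5% pdRBC library with 16127985 UMIs. The libraries stood apart in depth: the median cell held 2175 UMIs in hRBC and 9566 in 5% pdRBC, and 769 and 1370 cells reached 5000 UMIs. The libraries had 9 cell barcodes in common, 6 of them among the cells kept. Each of the 10 endothelial markers on the list used here was measured. The list summed to 4029 CPM in hRBC (CPM are UMIs of a gene per 1000000 UMIs of the library) and 3811 CPM in 5% pdRBC. Of 11 smooth muscle and pericyte markers, 5 had no UMI in either library, DES, ACTG2 and MYOCD among them. RGS5 alone was measured, and it was not low, at 369 and 328 CPM. Of 5 epithelial markers 3 were measured, with KRT18 at 133 and 93.2 CPM. Of 6 fibroblast markers 1 was measured (PDGFRA, 6.52 and 5.70 CPM), and of 4 lymphatic markers 1 (FLT4, 6.52 and 9.12 CPM). Leukocyte markers summed to 9 and 12 UMIs, platelet markers to 5 and 8, and erythroid markers to 12 and 1. The smooth muscle heavy chain MYH11 had 6 and 2 UMIs.

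The 41 genes made up 3.96% of all UMIs in hRBC (95% counting interval 3.95 to 3.97) and 3.72% in 5% pdRBC (3.71 to 3.73). All intervals here cover counting error only and say nothing of the spread between cultures. Per cell the median share was 3.94% (5th to 95th percentile 2.78 to 5.43) in hRBC and 3.62% (2.42 to 5.02) in 5% pdRBC, so the spread among cells of 1 library was wider than the gap between the libraries. The difference between libraries was wider among shallow cells. In cells of 1000 to 2000 UMIs the median share was 3.97% over 1180 hRBC cells and 2.43% over 44 cells of 5% pdRBC. In cells of 10000 or more UMIs it was 3.88% over 538 cells and 3.69% over 726. The share was lower in 5% pdRBC at every depth compared, while the part that depth plays in the pooled difference was not tested.

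Levels of the 41 genes spanned about 5 orders of magnitude on the CPM scale and stood in nearly the same order in both libraries (Spearman's rank correlation of levels 0.998 across the 41 genes, a description). A UMI counts 1 molecule read from its 5′ end, so CPM is not divided by gene length. In each library 8 genes stood above 1000 CPM, 26 between 100 and 1000 CPM, and 7 below 100 CPM. The 8 at the top were the monomer-sequestering thymosins TMSB4X and TMSB10, the cytoplasmic actins ACTB and ACTG1, profilin PFN1, the myosin light chain MYL6, cofilin CFL1 and the tropomyosin TPM4. The 7 lowest were MYL9, EZR, PDLIM1, MYH10, TAGLN, ACTA2 and CNN1. TMSB4X, TMSB10 and ACTB alone held 48.3% of the UMIs of the 41 genes in hRBC and 48.0% in 5% pdRBC. Of the 40 pairs of neighbours in the order of levels, 16 had overlapping counting intervals in hRBC and 13 in 5% pdRBC, MYL12A with MYH9 and MSN with TPM3 in both.

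**Figure D1:**
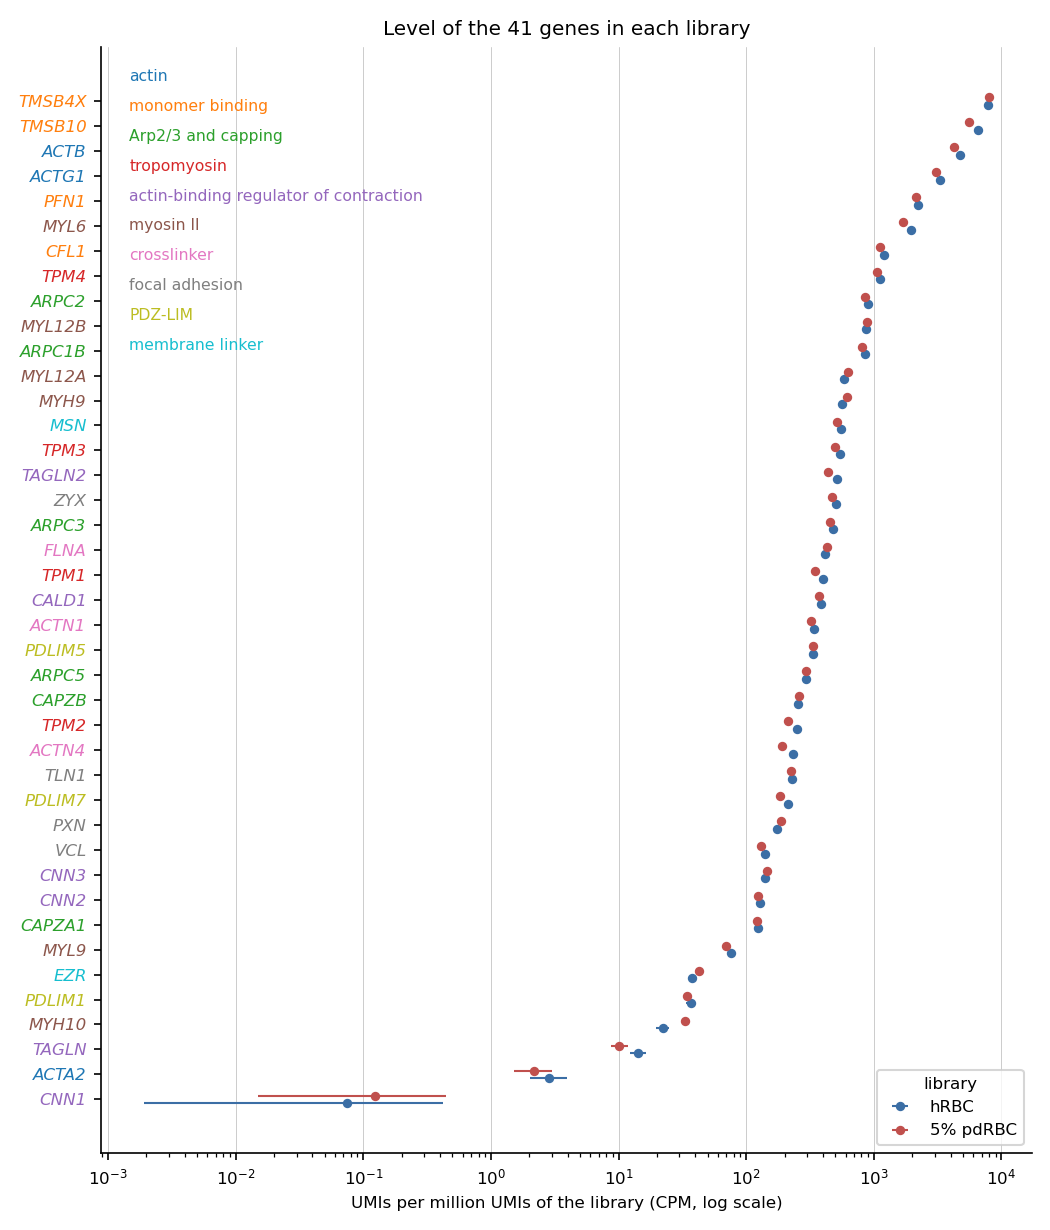
Level of each of the 41 genes in the hRBC library (blue) and the 5% pdRBC library (red), in CPM on a log axis with 95% counting intervals, gene names coloured by role. The 2 points of a gene lie close together from TMSB4X at the top, at 7817 and 8038 CPM, down to the contractile genes TAGLN, ACTA2 and CNN1 at the bottom, where the intervals widen.

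The smooth muscle contractile genes were near the floor in these cells. ACTA2, the actin of smooth muscle and of stress fibres in activated fibroblasts, had 38 UMIs in hRBC (2.85 CPM) and 35 in 5% pdRBC (2.17 CPM). CNN1, the smooth muscle calponin, had 1 and 2 UMIs. Both fell under the 100 UMIs over both libraries that a gene needed to be called measured, which left 39 measured genes of 41. TAGLN, or SM22, an early smooth muscle and SRF target, had 189 UMIs (14.2 CPM) and 164 UMIs (10.2 CPM). Its level was 1.39-fold lower in 5% pdRBC (95% counting interval 1.13 to 1.73). The difference was not seen in the deepest cells: in cells of 5000 to 10000 UMIs TAGLN stood at 17.5 CPM in hRBC and 8.11 CPM in 5% pdRBC, and in cells of 10000 or more at 12.0 and 11.6 CPM. Its paralog TAGLN2, which binds actin in many cell types, was far higher at 510 and 435 CPM and made up 97.3% and 97.7% of the transgelin UMIs.

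Across the 39 measured genes the libraries differed little. The median log2 fold (5% pdRBC over hRBC) was -0.08, with 12 genes above 0 and 27 below, against 0.02 over all 11043 measured genes and -0.02 over the 1680 at 100 CPM or more. Of the 39 genes, 36 differed by less than 1.2-fold, or 92.3%. The same held for 82.2% of all measured genes and for 89.6% of those at 100 CPM or more. The latter set is nearer in level, as 34 of the 39 genes stood in it, and its share was near that of the members. A gene was called when its fold passed a size and its counting interval left out 1. At 1.5-fold, 1 gene was higher in 5% pdRBC (MYH10), where 1.55% of all measured genes were called, and 0 were lower, where 1.09% were. At 1.2-fold the same gene was higher, with 7.28% of all genes called, and TAGLN and the alpha-actinin ACTN4 were lower, with 5.06% called. The members' shares at 1.2-fold, 2.56% and 5.13%, lay below the background and near it. With no minimum fold, 7 genes were higher (background 15.4%) and 23 were lower (background 12.2%). Highly counted genes pass that rule more easily: among genes at 100 CPM or more, 5 of 34 members were higher, with 24.5% of all such genes called, and 21 of 34 were lower, with 34% called.

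**Figure D2:**
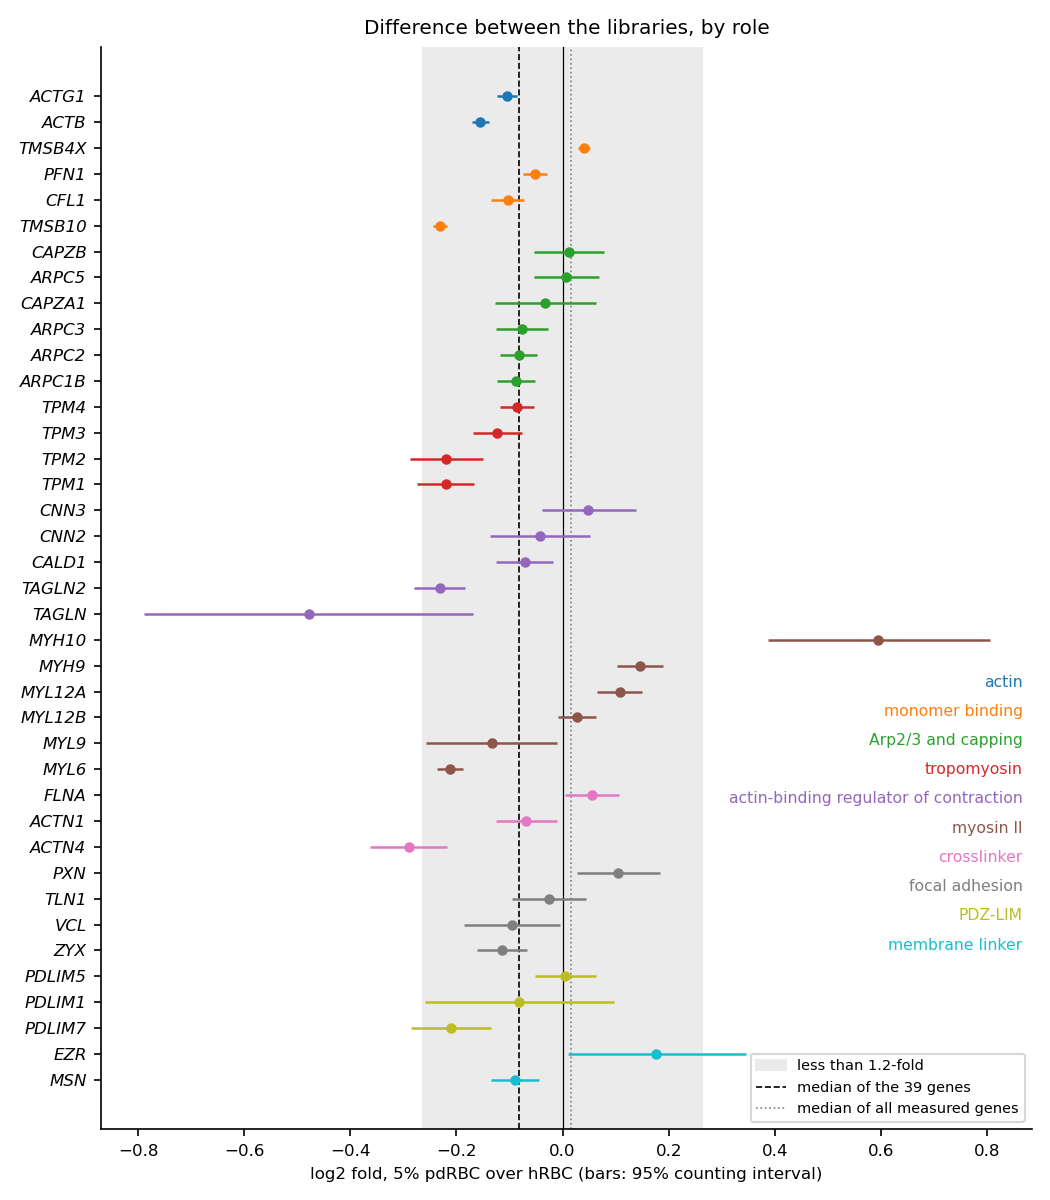
Log2 fold of each measured gene, 5% pdRBC over hRBC, grouped and coloured by role, with 95% counting intervals from 1 library a group. The grey band marks differences under 1.2-fold and holds 36 of the 39 points, with MYH10 to its right and TAGLN and ACTN4 to its left.

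Both cytoplasmic actins were a little lower in the 5% pdRBC library. ACTB, beta-actin (chr7:5527147-5563784, minus strand, GRCh38), stood at 4728 CPM in hRBC and 4246 CPM in 5% pdRBC, which is 1.11-fold lower (1.10 to 1.13). ACTG1, gamma-actin, stood at 3319 and 3087 CPM, or 1.07-fold lower (1.06 to 1.09). The coding sequences of these genes are nearly identical and have many processed copies in the genome, so the split between them depends on how the authors' counting placed shared reads. ACTB made up 58.7% of the UMIs of the 3 actins in hRBC and 57.9% in 5% pdRBC, and ACTA2 0.0354% and 0.0296%. The gap in ACTB was seen mostly in shallow cells, with a log2 fold of -0.48 in cells of 1000 to 2000 UMIs, -0.40 from 2000 to 5000, -0.04 from 5000 to 10000 and -0.03 above.

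The thymosins differed in their ratio to each other. TMSB4X, which sequesters actin monomers (chrX:12975108-12977227, plus strand), had 104237 UMIs in hRBC and 129644 in 5% pdRBC, or 7817 and 8038 CPM, a difference of 1.03-fold (1.02 to 1.04). TMSB10, a close relative with the same role (chr2:84905625-84906675, plus strand), had 87610 and 90318 UMIs, or 6569.9 and 5600.1 CPM, which is 1.17-fold lower in 5% pdRBC (1.16 to 1.18). The TMSB4X share of thymosin UMIs was therefore 54.3% in hRBC (54.1 to 54.6) and 58.9% in 5% pdRBC (58.7 to 59.1). The shift was also present in deep cells and in each of 4 clusters of cells described further on: the share was 53.4% and 58.9% in cells of 5000 or more UMIs, 52.1% and 56.6% in cluster 0, 52.4% and 57.6% in cluster 3, 54.8% and 59.5% in cluster 5, and 56.5% and 62.0% in cluster 6. The shift was not seen in every cluster. In cluster 2 (830 hRBC cells and 55 of 5% pdRBC) the log2 folds of TMSB4X and TMSB10 were 0.03 and -0.01, and both intervals held 0. In cluster 7 (48 and 71 cells) TMSB4X was lower by more than TMSB10, at -1.27 and -0.59. Cluster 10 (20 and 35 cells) went with the 4 clusters above, at -0.33 for TMSB4X and -0.79 for TMSB10. TMSB10 was lower in 5% pdRBC in each of the 4 depth ranges, with log2 folds of -1.04, -0.33, -0.22 and -0.31 from the shallowest to the deepest. TMSB4X was lower in the 2 shallow ranges too, at -0.93 and -0.24, then higher at 0.09 in cells of 5000 to 10000 UMIs and 0.01 above, where its interval held 0. The shallowest range holds only 44 cells of 5% pdRBC, and whether the ranges hold the same kinds of cells was not tested. Profilin PFN1, which feeds monomers to growing ends, stood at 2231 and 2153 CPM, and cofilin CFL1, which severs old filaments, at 1203 and 1120 CPM, both less than 1.1-fold lower.

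Genes of branched networks and filament ends barely differed. The Arp2/3 subunits ARPC1B, ARPC2 and ARPC3 were lower in 5% pdRBC by 1.06-fold, 1.06-fold and 1.05-fold, each with an interval that left out 1. The subunit ARPC5 (292 and 294 CPM) and the capping proteins CAPZA1 (124 and 121 CPM) and CAPZB (255 and 257 CPM) had intervals that held 1. All 6 genes together summed to 2905 CPM in hRBC and 2780.0 CPM in 5% pdRBC.

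All 4 tropomyosins were lower in 5% pdRBC. TPM4 was the most abundant at 1125 and 1060 CPM, followed by TPM3 at 542 and 498 CPM, TPM1 at 403 and 346 CPM and TPM2 at 248 and 213 CPM. These coiled-coil proteins lie along the filament and set which myosins and severing factors reach it. TPM1 and TPM2 differed more than TPM3 and TPM4: each of the first pair was 1.16-fold lower (1.12 to 1.21 for TPM1, 1.11 to 1.22 for TPM2), against 1.09-fold and 1.06-fold. TPM4 made up 48.5% of tropomyosin UMIs in hRBC and 50.1% in 5% pdRBC, and TPM1 17.4% and 16.3%. Of the other filament-binding regulators, TAGLN2 was 1.17-fold lower (1.14 to 1.21) and caldesmon CALD1, which restrains myosin on actin, stood at 387 and 369 CPM. The calponins CNN2 (128 and 124 CPM) and CNN3 (140 and 145 CPM) had intervals that held 1.

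Nonmuscle myosin II held the largest difference among the 39 genes. MYH10, the heavy chain of myosin IIB (chr17:8474205-8630761, minus strand), had 295 UMIs in hRBC and 539 in 5% pdRBC, or 22.1 and 33.4 CPM. It was 1.51-fold higher in 5% pdRBC (1.31 to 1.75). MYH10 was higher in 5% pdRBC in each depth range, with log2 folds of 2.51, 1.16, 0.81 and 0.47 from the shallowest to the deepest. The value of 2.51 has a wide counting interval (1.30 to 3.47) and rests on 44 cells of 5% pdRBC. The size of the difference thus changed between depth ranges, and whether these hold the same kinds of cells was not tested. MYH9, the heavy chain of myosin IIA and the main one in endothelium, stood at 560 and 619 CPM, or 1.11-fold higher (1.07 to 1.14). Its log2 fold was only 0.01 with every cell weighted equally, though it was 0.45, 0.33, 0.16 and 0.26 in the 4 depth ranges. MYH10 made up 3.80% of the UMIs of the pair in hRBC and 5.12% in 5% pdRBC. The light chains differed from each other. MYL6, the essential light chain, stood at 1967 and 1699 CPM, or 1.16-fold lower (1.14 to 1.18). MYL12A, a regulatory light chain whose phosphorylation switches the motor on, stood at 580 and 625 CPM, or 1.08-fold higher (1.05 to 1.11), and its neighbour MYL12B at 869 and 885 CPM with an interval that held 1. MYL12A and MYL12B turned with depth. In cells of 2000 to 5000 UMIs their log2 folds were -0.18 and -0.27, and in cells of 10000 or more they were 0.24 and 0.12. Both were below 0 with every cell weighted equally (-0.04 and -0.09) and after thinning to 2000 UMIs (-0.05 and -0.08), while MYL6 was lower in each depth range. The MYL6 share of light chain UMIs was 56.3% and 51.8%. MYL12A and MYL12B are near-identical neighbours on chromosome 18, so the split between them is uncertain. MYL9, the regulatory chain of smooth muscle, stood at 76.2 and 69.4 CPM.

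Among crosslinkers ACTN4 differed most. This alpha-actinin, which bundles filaments, stood at 232 CPM in hRBC and 190 CPM in 5% pdRBC, or 1.22-fold lower (1.16 to 1.29). Without the cells of the cycling cluster its log2 fold was -0.25 against -0.29 with them, so it no longer reached 1.2-fold. ACTN1, its stress fibre relative, stood at 338 and 322 CPM. ACTN1 made up 59.3% of alpha-actinin UMIs in hRBC and 63.0% in 5% pdRBC. Filamin FLNA, which links filaments at wide angles and ties them to integrins, stood at 414 and 430 CPM, or 1.04-fold higher (1.00 to 1.08). Each adhesion gene stayed under 1.1-fold. The scaffold paxillin PXN stood at 173 and 186 CPM (1.08-fold higher, 1.02 to 1.14), zyxin ZYX at 508 and 470 CPM (1.08-fold lower, 1.05 to 1.12), vinculin VCL at 141 and 132 CPM and talin TLN1 at 227 and 223 CPM. PDLIM7 stood at 212 and 184 CPM (1.16-fold lower, 1.10 to 1.22), while PDLIM5 (335 and 337 CPM) and PDLIM1 (36.7 and 34.7 CPM), which also dock signalling proteins on stress fibres, had intervals that held 1. Ezrin EZR, which anchors filaments to the membrane, stood at 37.9 and 42.9 CPM (1.13-fold higher, 1.01 to 1.27) and moesin MSN, the main such linker of endothelium, at 551 and 518 CPM (1.07-fold lower, 1.03 to 1.10).

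The genes around these 41 in the same pathways were described by count. Of 16 SRF and MRTF factors and other target genes, 13 were measured, 1 was at least 1.2-fold higher and 0 were lower, with a median log2 fold of 0.00. SRF itself had 35.8 CPM in both libraries, and FHL1, a LIM protein of muscle, was 1.24-fold higher (1.06 to 1.45). Of 21 other focal adhesion genes measured, 0 were higher and 1 was lower at 1.2-fold (TRIP6, a zyxin relative, at 59.2 and 49.2 CPM). Among 25 other measured genes of nucleation and turnover, the cofilin phosphatase SSH1 was 1.28-fold higher (1.18 to 1.38) and the severing protein gelsolin GSN was 1.34-fold lower (1.26 to 1.44). Among 20 other measured crosslinkers, myosins and linkers, PDLIM3 and EPS8 were higher and the cytokinesis protein ANLN was lower. Tubulins went with the lower side: TUBB4B, TUBA1C and TUBA1B were 1.32-fold, 1.21-fold and 1.21-fold lower. Their list of 14 measured genes, which also holds other cytoskeleton genes such as VIM and LMNA, had a median of -0.16. Cycling markers were lower in 5% pdRBC as well, 10 of 12 by at least 1.2-fold with a median of -0.64, and their part in the ANLN and tubulin values was not tested.

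Because SRF is a known regulator of this family, the reference promoters were searched for its CArG box, on both strands, in windows from 250 bases before to 50 bases after each RefSeq transcription start (GRCh38.p14). RefSeq windows were present for 37 of the 41 genes (all but ACTB, ARPC1B, TAGLN and MYL9), 59 windows in all, and 5 windows of 5 genes (ACTG1, ACTN1, CNN2, FLNA and TPM4) held the box. That is 8.47% of the windows, against 1.29% of all 35116 windows of the same length. A match says only that these letters are present, and the boxes were not measured in these cells. The core motif of the TEAD factors, CATTCC or its complement GGAATG, was in 11 of the 59 windows, or 18.6%, against 14.0% of all windows. The stretches around 4 of the boxes are given because these genes span the range of roles, from calponin and tropomyosin to crosslinkers, each read 5′ to 3′ on the strand of its gene with the box in capitals:
ACTN1, chr14:68977713-68977752, minus strand, intron of a longer ACTN1 transcript in GENCODE: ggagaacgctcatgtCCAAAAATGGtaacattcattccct
CNN2, chr19:1026504-1026543, plus strand, upstream of the gene: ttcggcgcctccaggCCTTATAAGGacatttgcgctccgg
FLNA, chrX:154374704-154374743, minus strand, upstream of the gene and over an exon of a gene on the other strand in GENCODE: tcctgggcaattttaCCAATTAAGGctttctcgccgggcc
TPM4, chr19:16067350-16067389, plus strand, intron of a longer TPM4 transcript in GENCODE: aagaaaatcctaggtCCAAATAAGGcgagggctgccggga
The genes that hold a box did not share a direction between the libraries: FLNA was 1.04-fold higher in 5% pdRBC, ACTN1, TPM4 and ACTG1 were 1.05-fold, 1.06-fold and 1.07-fold lower, and the interval of CNN2 held 1.

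Cells were grouped into 11 clusters from variable genes other than the 41. In each cluster at least 8 of the 10 endothelial markers had 3 or more UMIs summed over its cells. Free RNA could also pass so low a bar, so it does not settle the kind of cell. Clusters are called by number. Of the clusters with 100 or more cells in each library, cluster 0 was led by mitotic genes such as UBE2C and TOP2A, cluster 3 by TMEM158, GEM and EGR1, cluster 5 by ABCA1, GJA5 and DKK2, and cluster 6 by CCL20, FABP4, MGP and GJA4. Median depth was close between libraries in clusters 3 (10849 and 11086 UMIs) and 5 (8286 and 8667), was higher in hRBC in cluster 6 (13646 and 11125), and differed widely in cluster 0 (1717 and 11370). The 41 genes took the smallest share of these 4 in cluster 5, at 3.62% in hRBC and 3.43% in 5% pdRBC, and the largest in cluster 6, at 4.42% and 4.39%.

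Of these 4 clusters, cluster 6 carried the most light chain RNA. MYL6 stood there at 3419 CPM in hRBC and 3106 CPM in 5% pdRBC, against 1509 and 1189 CPM in cluster 5. MYL12A stood at 1135 and 1261 CPM against 383 and 351 CPM in cluster 5. ARPC3 (775 and 729 CPM against 397 and 350) and CFL1 (1810 and 1862 CPM against 973 and 909) had the same order, while the heavy chain MYH9 did not, at 403 and 564 CPM in cluster 6 and 470 and 638 CPM in cluster 5. Of the same 4, EZR was highest in clusters 0 and 3, at 61.2 and 60.5 CPM and at 44.7 and 63.2 CPM, and lowest in cluster 5, at 20.6 and 21.1 CPM. Some small clusters lay outside these ranges, such as cluster 10 (20 and 35 cells), with MYL6 at 3986 and 2145 CPM and EZR at 7.89 and 91.9 CPM. These are descriptions of cells grouped by other genes, not tests.

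The difference between the libraries was not of 1 size in all clusters. MYH10 stood at 20.5 CPM in hRBC and 55.7 CPM in 5% pdRBC in cluster 6, or 2.68-fold higher (1.81 to 4.21), on 29 and 140 UMIs. It was 1.93-fold higher in cluster 0 (1.29 to 2.93) and 1.52-fold higher in cluster 5 (1.19 to 1.97). In cluster 3 it stood at 14.9 and 12.0 CPM, with an interval that held 1. MYH9 was higher in 5% pdRBC in clusters 3, 5 and 6, by 1.07-fold (1.01 to 1.13), 1.36-fold (1.28 to 1.45) and 1.40-fold (1.27 to 1.55), and was the 1 gene of 39 with an interval above 1 in each. TMSB10, MYL6, ARPC1B and ARPC2 were lower in each of the 3, although the interval of ARPC2 in cluster 3 only just left out 1. In cluster 0 TMSB10, MYL6 and ARPC2 were lower too. The cluster 0 intervals of MYH9 (0.99 to 1.17 as 5% pdRBC over hRBC) and ARPC1B (0.96 to 1.12) held 1. How many of all measured genes kept 1 direction in clusters 3, 5 and 6 was not counted.

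For 7 genes (ACTB, ARPC5, CALD1, MYL12A, MYL12B, PDLIM5 and TPM1) the intervals in clusters 3, 5 and 6 fell on opposite sides of 1. The same count was not made over all measured genes, so it is not read as a trait of this family. Highly counted genes have narrow intervals that leave out 1 more easily. CALD1 was 1.29-fold lower in 5% pdRBC in cluster 3 (417 and 323 CPM) and 1.25-fold higher in cluster 5 (307 and 384 CPM). TPM1 was 1.34-fold lower in cluster 3 (412 and 308 CPM) and 1.18-fold higher in cluster 5 (298 and 353 CPM). PDLIM5 was 1.29-fold lower and 1.17-fold higher in the same clusters. ACTB went the other way, 1.11-fold higher in cluster 3 (4048 and 4496 CPM) and 1.13-fold lower in cluster 5 (3615 and 3207 CPM). The light chains MYL12A and MYL12B went with ACTB. Their log2 folds were 0.26 and 0.205 in cluster 3, and -0.13 and -0.12 in cluster 5. ARPC5 was higher in cluster 3 and lower in cluster 6, and its interval in cluster 5 held 1. The pooled folds of these 7 genes are sums over clusters that differ in sign. The differences between clusters were not tested, as each rests on 1 library a group.

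By the 1.2-fold rule, cluster 6 had 7 of 38 measured members higher (CNN3, PDLIM5, CALD1, PDLIM1, MYH10, MYH9 and FLNA), with 10.8% of all measured genes called, and 0 lower, with 7.15% called. Cluster 5 had 3 higher and 3 lower of 38 (backgrounds 9.88% and 6.86%). Cluster 3 had 1 higher, EZR, and 4 lower of 39 (backgrounds 10.3% and 8.47%). Cluster 0 had 2 higher and 5 lower of 38 (backgrounds 7.52% and 6.59%).

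**Figure D3:**
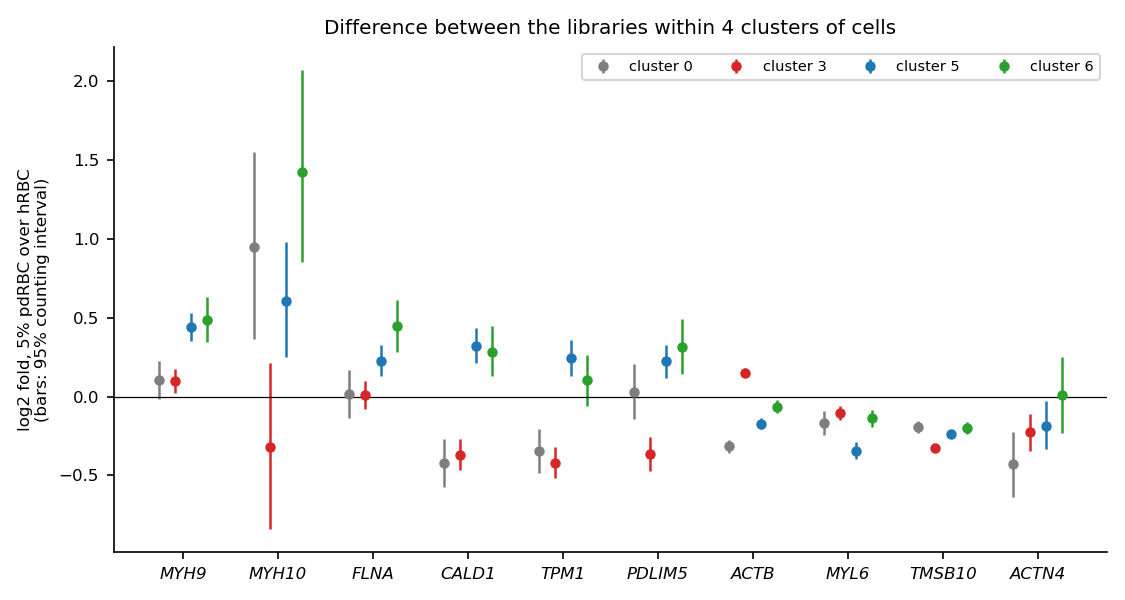
Log2 fold, 5% pdRBC over hRBC, of 10 genes within clusters 0, 3, 5 and 6, with 95% counting intervals. CALD1, TPM1 and PDLIM5 lie below 0 in cluster 3 and above 0 in cluster 5, ACTB does the reverse, and MYH10 is highest in cluster 6.

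In cluster 7 the difference of these genes from the other cells went with gene length. The cluster had 48 hRBC cells and 71 cells of 5% pdRBC, shallow at medians of 2069 and 2373 UMIs. Their median mitochondrial share was 4.67% and 6.82%, against 2.17% and 1.85% over all cells of each library. A pair of nuclear-retained RNAs was high in them, MALAT1 at 21526 CPM in hRBC and 26260.0 CPM in 5% pdRBC against 7775 and 7469 CPM in the other cells, and NEAT1 at 7892 and 11154 CPM against 1930 and 2323 CPM. The 41 genes took 2.67% and 2.16% of their UMIs. Long genes stood above the other cells and short genes below. VCL, whose gene spans 126171 bases, had a log2 ratio to the other cells of 1.55 in hRBC and 1.39 in 5% pdRBC. MYH9 had 1.05 and 1.09, MYH10 1.22 and 1.72, and CALD1, the longest of the 41, 1.19 and 1.61. TMSB10, whose gene spans 1051 bases, had -1.35 and -1.71, and MYL6 had -1.36 and -1.41. Over the 39 measured genes Spearman's rank correlation between this ratio and gene span was 0.65 in hRBC and 0.74 in 5% pdRBC, against 0.50 and 0.58 over 11021 genes with a length. The same relation in the pooled fold between libraries was weaker, at 0.35 over the 39 genes and 0.15 over all, and is given as a description with no test. With at most 10% mitochondrial UMIs allowed per cell, the log2 fold of MYH10 was 0.58 against 0.59 in all cells. That limit lies above the median share of cluster 7 in both libraries, so it keeps most of the cluster. The part of cluster 7 in the fold of MYH10 was not tested.

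**Figure D4:**
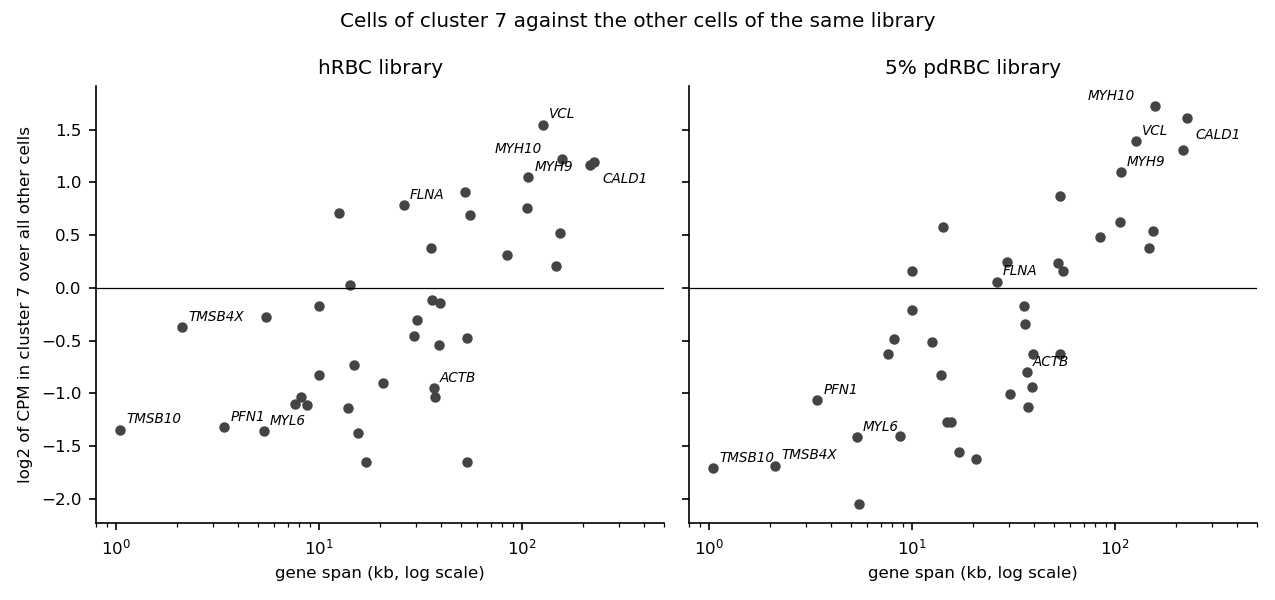
Log2 ratio of CPM in cluster 7 to CPM in the other cells of the same library, against the span of the gene in kilobases on a log axis, 1 point per measured gene. In both libraries genes above 100 kb, such as VCL, MYH9 and CALD1, lie above 0, and TMSB10, PFN1 and MYL6 lie more than 1 below it.

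Expression of these genes was then described cell by cell. Cells were thinned to 5000 UMIs each, so that depth was equal, which left out 1786 hRBC cells and 231 cells of 5% pdRBC. The median thinned cell held 39 UMIs of TMSB4X in hRBC and 40 in 5% pdRBC, 34 and 28 of TMSB10, 20 and 18 of ACTB, 15 and 14 of ACTG1 and 8 and 6.5 of MYL6. The 10th to 90th percentiles of ACTB were 10 to 35 UMIs in hRBC and 10 to 34 in 5% pdRBC, and those of TMSB4X were 26 to 55 and 26 to 57. The variance of ACTB was 5.33 and 5.13 times its mean, the highest such ratio of the 41 genes (the Fano factor, 1 for pure counting, which rises with the mean). The Fano factor of MYL6 was 3.37 and 3.79. Of the 34 members with at least 0.5 UMI per thinned cell, the median Fano factor was 1.35 in both libraries against 1.16 over all such genes, and 5 lay above the 95th percentile of those genes in each library.

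Among the scarcer genes, MYH10 had a UMI in 10.0% of thinned hRBC cells and 13.1% of thinned 5% pdRBC cells, and in 9.55% and 22.7% of cells before thinning. ACTA2 had a UMI in 1.43% and 1.24% of thinned cells and in 1.49% and 2.12% before. TAGLN had one in 6.63% and 4.45% of thinned cells and in 5.99% and 7.68% before. These cultures hold no cell type that should lack such genes, so the share given by free RNA could not be measured and low shares are not read as expression.

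Co-expression was taken as Pearson's r of log2(UMIs + 1) across thinned cells, 769 in hRBC and 1370 in 5% pdRBC, for the 561 pairs of the 34 genes. The cells of a library share 1 preparation and 1 fixed total, so the values are a description with no p. Most pairs were close to 0, with a median r of 0.03 in both libraries. Still, 18.9% of pairs in hRBC and 16.4% in 5% pdRBC were above 0.1, against 3.72% and 3.63% of pairs of other genes with at least 0.5 UMI per thinned cell. Above 0.3 were 13 and 17 pairs, or 2.32% and 3.03%, against 0.14% and 0.18% of pairs of those other genes. The other genes were not matched to the members in level.

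The 5 highest pairs were MYL6 with MYL12A (0.41 in hRBC and 0.50 in 5% pdRBC), ACTB with PFN1 (0.49 and 0.39), ACTB with ACTG1 (0.42 and 0.45), CFL1 with MYL6 (0.39 and 0.46) and MYL6 with MYL12B (0.37 and 0.44). Highly counted genes can reach a higher r than sparse ones, and reads shared by ACTB and ACTG1 enter both. With each cluster centred on its own mean, ACTB with PFN1 kept 0.43 and 0.33, while MYL6 with MYL12A had 0.29 and 0.37. The 3 lowest pairs were weakly negative: MYL12B with MYH9 (-0.13 and -0.08), ARPC3 with FLNA (-0.12 and -0.09) and PFN1 with PDLIM5 (-0.11 and -0.08). MYH9, FLNA, VCL and PDLIM5 stood apart from the block formed by ACTB, PFN1, CFL1, ARPC3 and the light chains. By role, the median r was 0.18 and 0.18 among monomer-binding genes and 0.16 and 0.17 among myosin II genes, but 0.00 and 0.01 among Arp2/3 and capping genes, whose proteins form fixed complexes.

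**Figure D5:**
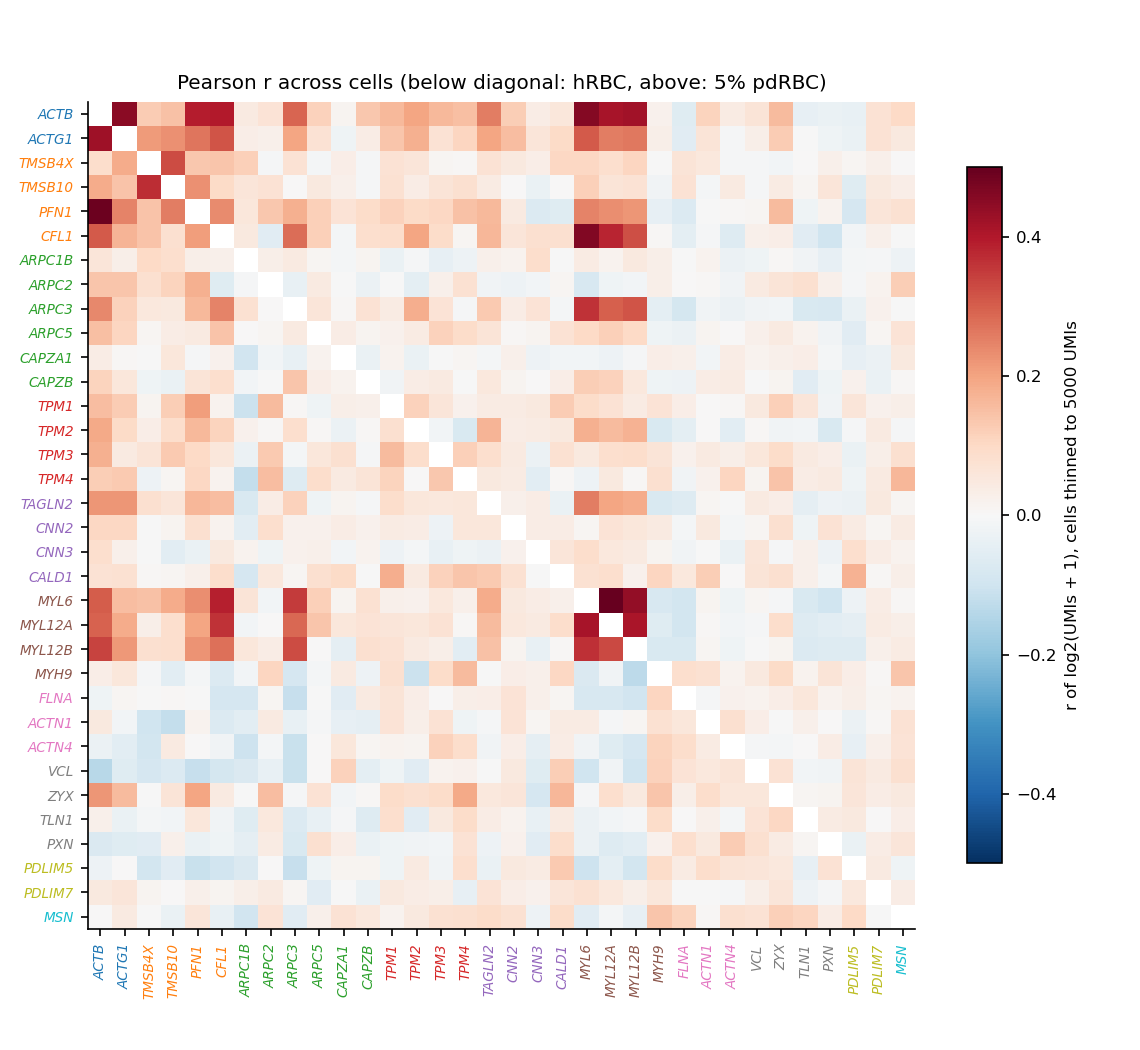
Pearson's r between 34 of the genes across cells thinned to 5000 UMIs, hRBC below the diagonal and 5% pdRBC above, names coloured by role. The dark block joins ACTB, ACTG1, PFN1, CFL1, ARPC3, MYL6, MYL12A and MYL12B in both libraries, and most other pairs are near 0.

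The genes outside the family that tracked it best were ranked by r with the summed UMIs of the 41 genes over 1554 genes of at least 0.5 UMI per thinned cell. Among the 8 highest were ANXA2 (0.38 in hRBC and 0.42 in 5% pdRBC), S100A6 (0.38 and 0.35), S100A11 (0.37 and 0.34), S100A10 (0.38 and 0.31), LGALS1 (0.30 and 0.37), TUBA1B (0.31 and 0.34) and PRDX1 (0.27 and 0.36). Annexin A2 and S100A10 form a complex at membranes that binds actin. The lowest were NEAT1 (-0.36 and -0.40) and MALAT1 (-0.30 and -0.37), which are named after their values were seen and are the RNAs that were high in cluster 7.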

How the data were processed

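Single-cell RNA of HUVECs was counted by the authors as UMI counts per gene and cell with Cell Ranger 7.0.0 on GRCh38, per the submitters' processing notes. Neither the annotation release nor the strand setting was named in the labels. Barcodes with at least 1000 UMIs, 500 genes and at most 20% mitochondrial UMIs were kept. The deposited counts were summed per library over all kept cells, shallow ones included, and divided by the library total (CPM). Folds had 0.5 UMI added to each sum and carry a 95% Clopper-Pearson counting interval after conditioning on the sum, and a gene was measured at 100 UMIs over both libraries. With 1 library per group no test was possible. Fold and interval code was tested on simulated data. Cells were clustered with Scanpy 1.11.5 (2000 variable genes without the 41, 30 components, 15 neighbours, Leiden resolution 0.5), and no doublet caller was run. Gene spans come from GENCODE 29. The 41 genes and all gene lists were chosen with earlier results of these data known. Of the 41 genes all could be named. Those given in full were the 6 largest differences each way, the 5 highest levels, ACTA2, TAGLN, CNN1 and paralogs. Of other lists up to 3 genes with the largest fold and an interval without 1 were eligible, with the 5 highest and 3 lowest pairs and the 8 genes most like the family. Other values named were chosen after they were seen. Alternatives were depth, mitochondrial limit, weighting, thinning, scaling, cycling cells and the measuring minimum. Restriction to clusters 3, 5 and 6 was added after seeing the data. A gene most like the family and a pathway list are not reported here.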

Additional observations from a re-analysis of the deposited data

How the results depend on the processing

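MYH10 stayed higher in 5% pdRBC under all alternatives run (log2 fold 0.54 to 0.69), but with at most 10% mitochondrial UMIs, with median ratio scaling and without the cycling cluster it fell just under 1.5-fold, leaving 0 genes. Weighting every cell equally, with calls by size alone, put 1 gene (TAGLN) at least 1.5-fold lower and 9 genes at least 1.2-fold lower, where 2.44% and 14.3% of all measured genes were. Thinning to 2000 UMIs put 4 genes at least 1.2-fold lower, with 6.42% of all genes. The count of genes at least 1.2-fold lower was 1 without the cycling cluster, 1 with a measuring minimum of 500 UMIs and 1 in clusters 3, 5 and 6 alone. The count at least 1.2-fold higher was 2 without the cycling cluster and 3 in clusters 3, 5 and 6, where the median log2 fold was -0.0092. These small counts only show how far the processing moves them. They are given without the share over all measured genes and are not read as a result about the 41 genes. The share of the 41 genes was 3.92% and 3.74% among deep cells (at least 5000 UMIs), 4.00% and 3.64% for equal weights, 3.97% and 3.67% after thinning, 3.92% and 3.71% without the cycling cluster, and 3.86% (hRBC) in clusters 3, 5 and 6. The cause was not tested. Of 39 signs, 31 were kept with equal weights, 33 in clusters 3, 5 and 6, 34 after thinning and 36 to 39 otherwise. No paired analysis was possible because each group is 1 library. Depth limits ACTA2 and CNN1, for which no difference was detectable, and comparisons of shallow cells, of which 5% pdRBC has few.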

Other observations

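Of 8 markers of mesenchymal transition, 6 were measured, and their median log2 fold was 0.19. SNAI1, a transcription factor that represses junction genes, stood at 46.3 CPM in hRBC and 63.1 CPM in 5% pdRBC, or 1.36-fold higher (1.23 to 1.51). ZEB2 stood at 54.7 and 66.0 CPM (1.21-fold higher, 1.10 to 1.33), ZEB1 at 351 and 414 CPM (1.18-fold higher, 1.14 to 1.23) and the matrix protein FN1 at 1077 and 1195 CPM (1.11-fold higher, 1.09 to 1.13). SNAI2 and CDH2 had intervals that held 1. The markers not measured were TWIST1, with 3 and 0 UMIs, and S100A4, with 31 and 19 UMIs, which was 1.95-fold lower (1.08 to 3.70). Endothelial junction genes differed in direction: CDH5 (660 and 612 CPM) and PECAM1 (809 and 701 CPM) were 1.08-fold and 1.15-fold lower, and ESAM was 1.06-fold lower, while CLDN5 (40.6 and 54.6 CPM) was 1.34-fold higher. Of the contractile genes, TAGLN was lower over all cells, at 14.2 and 10.2 CPM. ACTA2 (2.85 and 2.17 CPM) and CNN1 (1 and 2 UMIs) were too scarce for a difference to be read either way. These values come from 1 library a group and were not tested.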
